A study of Citrus unshiu with 6 samples.

Results

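The genes described here are those of auxin and cytokinin in the peel of Satsuma mandarin (Citrus unshiu), 95 of the 23099 genes in the expression table. They were chosen by the text of their best protein match and not by their values. A gene entered when this text named auxin, indole-3-acetic acid, YUCCA, SAUR, cytokinin or adenylate isopentenyltransferase. It also entered when the text named a two-component response regulator, a histidine-containing phosphotransfer protein or a histidine kinase. Clock genes named APRR were left out, which took 98 matching texts to 95. Of the 95 genes, 62 were placed under auxin and 33 under cytokinin by their descriptions, in 16 families. Some of these are named after proteins with other roles, as given below. Genes described as hypothetical proteins are not among them, whatever their function.

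Normal peel (CK) and peel with roughing disorder (RD), a thick and coarse rind, were compared by RNA-sequencing at 3 ages of the fruit, which in days after full bloom (DAFB) were 30, 80 and 170. All fruit came from "Yamashitabeni wase" trees on trifoliate orange rootstock. The disorder was induced in spring by stripping trees of most of their fruit and leaving only upward ones, whereas CK trees kept their crop. RD and CK peel therefore also differed in tree and in fruit load, and may have differed in fruit position, and none of this can be told apart from RD itself. Fewer RD than CK fruit were sampled at each stage. At 170 DAFB CK fruit had coloured fully while RD fruit was still colouring, so that pair also differed in ripeness. Each condition is 1 pooled library, so a difference is one between 2 pools, and no SD or test over replicates could be had. The study's own test between 2 libraries takes reads per gene and was not run here. In whole peel, fewer cells of a type and less RNA per cell cannot be told apart.

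Auxin is made from tryptophan in a final step by YUCCA enzymes, is stored as conjugates by GH3 enzymes, and is moved from cell to cell by AUX1/LAX influx and PIN efflux carriers. In the nucleus it leads to the breakdown of Aux/IAA repressors, which frees auxin response factors (ARF) to act on genes such as the SAUR genes. Cytokinin is made by isopentenyltransferases, activated by LOG enzymes and degraded by cytokinin dehydrogenases. Its receptor kinases pass phosphate through phosphotransfer proteins to response regulators, of which type-B members activate transcription and type-A members restrain the signal. In fruit both hormones are known for their part in cell division and growth of the young rind. Roles given below come mostly from Arabidopsis.

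Levels are FPKM, a fragment count scaled to transcript length and library size, so they may be compared between genes. Libraries are named by peel and stage (CK30 is CK peel at 30 DAFB). Of paired values, CK is given first and RD second, in the order of the stages, and the log2 ratio is that of RD to CK. A gene is called higher or lower when its FPKM differed at least 2-fold and reached 1 in the higher library, and a gene is called measurable in a comparison when it reached 1 in either library. A gene at 0 in 1 of the libraries was given no ratio, and is described as listed at 0. The 6 libraries had between 16026 and 17155 genes at an FPKM of at least 1. Markers of several tissues differed between the pools. Chlorophyll a-b binding genes, 7 in number, summed to 4833 FPKM in CK30 against 9912 in RD30, 12880 against 11940 at 80 DAFB, and 125.5 against 1201 at 170 DAFB. Oil gland genes, 11 limonene or terpene synthases, summed to 322.1 against 716.9, 978.0 against 817.7, and 591.0 against 541.7, and 8 cuticle genes to 48.4 against 68.9, 57.4 against 63.9, and 140.0 against 47.3. A seed list of 10 genes summed to 235.5 against 274.3, 708.1 against 790.0, and 1383 against 934.7, with 3 to 5 of them at an FPKM of 1 or more in each library. Most of that list is late embryogenesis abundant genes, which are also stress genes. Of its storage genes, an oleosin was at 7.73 to 17.02 FPKM and the others were at or below 0.51. Vascular markers, 19 genes, summed to 529.1 FPKM in CK30 against 311.5 in RD30, 225.7 against 233.1 at 80 DAFB, and 31.1 against 56.9 at 170 DAFB. Of these markers 10 reached an FPKM of 1 in each library but CK170, where 7 did. Their part in the differences below was not tested.

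Of the 95 genes, 75 reached an FPKM of 1 in at least 1 library, 50 did so in all 6, and 20 stayed under 1 throughout, among them 4 of the 8 PIN genes and 4 of the 7 genes of cytokinin activation. Together they held between 0.295% (RD170) and 0.54% (CK30) of all FPKM. Only 2 were at 100 FPKM or more in every library, a LOG enzyme (LOG1-like, Cs8g16360) and a protein named after the auxin-induced ARG2 of mung bean (Cs5g33320).

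At 30 DAFB, RD peel had more of 29 of the 72 measurable genes by the 2-fold rule (40.3%) and less of 6 (8.33%). Over all genes measured in these pools 25.6% were higher and 6.34% lower, so an upward lean was also present over genes at large. The median log2 ratio of the auxin and cytokinin genes was 0.70, against 0.48 over all genes. Among genes with an FPKM of at least 1 in both libraries, 20 of 57 were higher (35.1%) and 3 lower (5.26%), beside 20.8% and 5.77% of all such genes. The median over all genes was itself shifted by 0.43, and with this shift taken off every ratio (the centred scale) 15 were higher and 10 lower (20.8% and 13.9%), against 13.9% and 10.8% of all genes. Both directions were then about as common among cytokinin genes, with 4 higher and 5 lower of 25, and auxin genes had 11 higher and 5 lower of 47.

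Fewer genes met the rule at 80 DAFB, where 8 of 68 were higher (11.8%) and none was lower. Over all genes fewer met it too, with 5.2% higher and 4.86% lower. On the centred scale, after taking off 0.09, 6 were higher (8.82%) and 2 lower (2.94%), beside 4.28% and 5.63% of all genes. With an FPKM of at least 1 in both libraries the higher genes were 6 of 64 (9.38%), against 3.08% of all such genes, and none was lower, against 3.66%. At 170 DAFB, 8 of 66 were higher (12.1%) and 9 lower (13.6%), beside 8.14% and 10.1% of all genes. The median ratio was -0.15 for these genes and -0.11 over all genes, and on the centred scale 8 were higher (12.1%) and 7 lower (10.6%), beside 9.22% and 8.71%. With an FPKM of at least 1 in both libraries 6 of 57 were higher (10.5%) and 4 lower (7.02%), beside 5.58% and 7.13%.

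**Figure D1:**
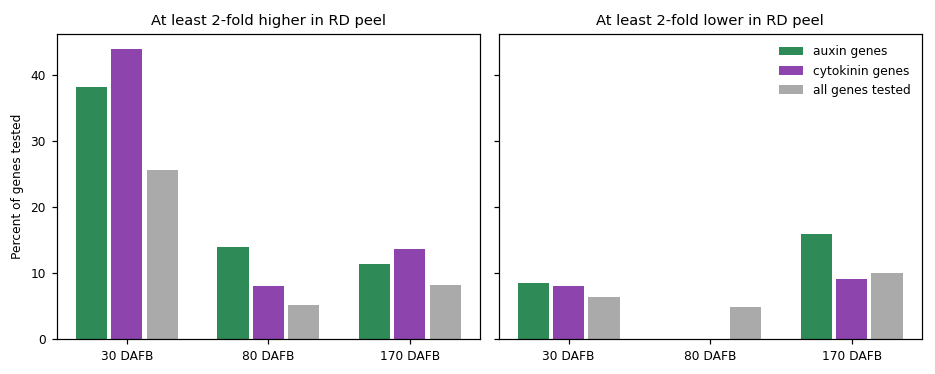
Share of measurable genes (percent) at least 2-fold higher (left panel) or lower (right panel) in RD than in CK peel at each stage, for auxin genes (green), cytokinin genes (purple) and all genes (grey). At 30 DAFB the left bars exceed the right ones in all 3 groups, with 25.6% of all genes higher and 6.34% lower.

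Of the 75 genes that reached an FPKM of 1 in any library, 29 met the 2-fold rule at no stage (38.7%), 33 at 1 stage (44.0%), 12 at 2 stages (16%) and 1 at all 3 (1.33%). Among all 18748 such genes the shares were 57.2%, 31.6%, 9.47% and 1.71%. The gene that met it throughout is described as an auxin-repressed protein (Cs1g16830), of a family linked to growth arrest and dormancy. Its FPKM was 0.5 in CK30 against 1.76 in RD30, 1.56 against 3.72 at 80 DAFB, and 1.03 against 2.25 at 170 DAFB. RD peel was thus above CK peel each time, with log2 ratios of 1.82, 1.25 and 1.13, though at low levels.

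Auxin synthesis was represented mainly by a pair of YUCCA10-like genes. The more abundant (Cs5g32420) had an FPKM of 48.5 in CK30 against 90.42 in RD30, 123.87 in CK80 against 137.03 in RD80, and 9.74 in CK170 against 6.45 in RD170. It was high in young peel and low in mature peel of both kinds, and at no stage differed 2-fold between them. Its neighbour in name (Cs5g32440) had 9.57 in CK30 against 23.04 in RD30, a log2 ratio of 1.27, which no longer reached 2-fold on the centred scale. Reads may have been divided between genes described alike, whose sequences were not compared. YUCCA2-like (Cs4g15810) was weak, at 0.19 in CK30 against 1.83 in RD30, 0.37 against 1.78 at 80 DAFB, and 1.29 against 0.72 at 170 DAFB. It was higher in RD peel at the first 2 stages, with log2 ratios of 3.27 and 2.27, and not at maturity (-0.84). The remaining YUCCA genes, 2 of 5, stayed at or below 0.2 FPKM.

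GH3 enzymes, which join auxin to amino acids, differed little in their abundant members. GH3.1-like Cs8g04570 lay between 13.78 and 18.55 FPKM in all 6 libraries and Cs8g04580 between 2.95 and 4.04. Another GH3.1-like gene (Cs1g22140) had 0.06 in CK30 against 0.25 in RD30, 0.06 in CK80 against 0.22 in RD80, and 16.81 in CK170 against 0.19 in RD170. CK170 thus stood alone, and RD170 was 88.5-fold below it (log2 ratio -6.47), a difference that rests on that 1 pool. A further copy, Cs8g04610, was confined mostly to 30 DAFB, with 3.34 in CK30 against 0.92 in RD30 (log2 ratio -1.86).

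Carriers of auxin that differed at 30 DAFB were higher in RD peel. PIN3-like (Cs2g16620), an efflux carrier that redirects auxin sideways in Arabidopsis, had 7.12 FPKM in CK30 against 16.86 in RD30, 8.18 against 17.08 at 80 DAFB, and 33.0 against 17.11 at 170 DAFB. RD peel kept nearly the same level at all 3 stages, while CK peel was lower early and higher late, with log2 ratios of 1.24, 1.06 and -0.95. PIN6-like (Cs3g20820), whose Arabidopsis counterpart acts partly at the endoplasmic reticulum, had 2.37 against 5.51 at 30 DAFB and 2.87 against 6.58 at 80 DAFB, and was listed at 0 in CK170 beside 0.59 in RD170. The influx carrier LAX5-like (Cs8g02900) had 3.46 against 8.56 at 30 DAFB, 2.87 against 5.63 at 80 DAFB, and 1.93 against 0.95 at 170 DAFB. It was higher in RD peel at first (log2 ratio 1.31), just short of 2-fold at 80 DAFB (0.97) and lower at maturity (-1.02). On the centred scale, neither PIN gene nor the influx carrier reached 2-fold at 30 DAFB. At 80 DAFB PIN6-like still did so on that scale, and at 170 DAFB the influx carrier did not. The most abundant genes of transport encode BIG, a large protein needed for polar auxin transport. Cs6g19780 lay between 49.14 and 72.64 FPKM, and its log2 ratios were 0.09, -0.01 and 0.00.

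Aux/IAA repressors were among the abundant auxin genes of the peel. The most abundant, IAA9-like (Cs3g16750), whose tomato counterpart restrains fruit set, had 284.52 FPKM in CK30 against 273.3 in RD30, 218.55 in CK80 against 223.06 in RD80, and 92.58 in CK170 against 149.49 in RD170. The peels were close at 30 and 80 DAFB, and at 170 DAFB RD was above CK by less than 2-fold (log2 ratio 0.69). Of 8 measurable members at 30 DAFB 1 was higher, the weak IAA30-like gene (orange1.1t01781), which was listed at 0 in CK30 and had 1.45 in RD30.
At 170 DAFB the rule was met upward by 3 of 8 and downward by 1, beside 8.14% and 10.1% of all genes. IAA13-like (Cs9g09120) had 6.49 against 9.79 at 30 DAFB, 6.44 against 11.23 at 80 DAFB, and 0.46 against 3.08 at 170 DAFB. It fell in both peels by maturity, further in CK, which gave a log2 ratio of 2.74. IAA27-like (Cs4g16220) was higher at 80 DAFB, with 1.78 and 3.77 (under 2-fold on the centred scale), and at 170 DAFB, with 0.96 and 2.0. IAA17-like (Cs1g13960) stood at the limit, with 11.66 in CK170 against 23.43 in RD170. The lower gene, IAA1-like (Cs4g17050), had 3.36 in CK170 and was listed at 0 in the other 5 libraries.

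Most auxin response factors differed little between the peels. All 14 were measurable at each stage, and 10 at 30 DAFB, 14 at 80 DAFB and 13 at 170 DAFB did not meet the 2-fold rule. At 30 DAFB 3 were higher (21.4%) and 1 lower (7.14%), beside 25.6% and 6.34% of all genes. At 80 DAFB none was either, beside 5.2% and 4.86%. At 170 DAFB none was higher and 1 was lower (7.14%), beside 8.14% and 10.1%. The most abundant, ARF1-like (Cs3g01570), a repressing member, had 61.22 against 60.39 FPKM at 30 DAFB, 72.06 against 73.24 at 80 DAFB, and 35.21 against 43.18 at 170 DAFB. The genes named after the activating ARF5, ARF6 and ARF8, which are known from flower and fruit development, did not reach 2-fold in any pair of peels.
Those that were higher at 30 DAFB were weak or moderate. ARF10-like (Cs8g16440), a repressing ARF targeted by a microRNA in Arabidopsis, had 0.88 in CK30 against 4.2 in RD30 (log2 ratio 2.25). A gene named after ARF18 (Cs6g11800) had 0.81 and 2.83 (1.80). ARF7-like (Cs4g07020), an activating member, had 6.4 and 17.02 (1.41), which was under 2-fold on the centred scale. ARF9-like (Cs5g01980) went the other way, with 16.41 and 7.15 (-1.20). At 170 DAFB a weak ARF7-like gene (Cs1g08460) was lower, with 1.4 and 0.35.

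SAUR genes, short early auxin-response genes tied to cell expansion, had the highest median ratio of the auxin families at 30 DAFB. RD peel had more of 6 of the 7 measurable members and less of 1, beside 25.6% and 6.34% of all genes. The median log2 ratio, over the 6 members above 0 in both libraries, was 1.94. On the centred scale 5 were higher and 1 was lower, beside 13.9% and 10.8% of all genes. Most SAUR genes were weak. The 6B-like gene orange1.1t04220 had 0.12 FPKM in CK30 against 6.72 in RD30, 0.36 in CK80 against 1.57 in RD80, and 2.45 in CK170 against 4.03 in RD170. RD was above CK each time, by log2 5.81, 2.12 and 0.72, and the gap narrowed from 30 to 80 DAFB as RD fell and CK rose.
The most abundant member, 10A5-like orange1.1t02550, had 7.19 against 16 at 30 DAFB, 28.61 against 14.7 at 80 DAFB, and 36.41 against 44.92 at 170 DAFB. It was higher in RD peel at 30 DAFB (log2 ratio 1.15, under 2-fold on the centred scale) and nearly 2-fold lower at 80 DAFB (-0.96). The lower member, X10A-like orange1.1t04213, had 1.02 in CK30 against 0.46 in RD30. ARG7-like (Cs3g25880) had 0.36 against 1.58 at 30 DAFB, 0.06 against 0.43 at 80 DAFB, and 3.53 in CK170, with RD170 listed at 0. By 80 DAFB 1 of 5 measurable SAUR genes was higher and none lower, beside 5.2% and 4.86% of all genes. At 170 DAFB no SAUR gene of 6 was higher while 1 was lower, beside 8.14% and 10.1%. The SAUR genes orange1.1t04213, orange1.1t04220, orange1.1t04225 and orange1.1t04226 may share reads if their sequences are alike, which was not examined. The last 2 were also higher in RD30, at 1.74 against 6.28 and 1.43 against 5.86, so the higher SAUR genes may not be separate signals.

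**Figure D2:**
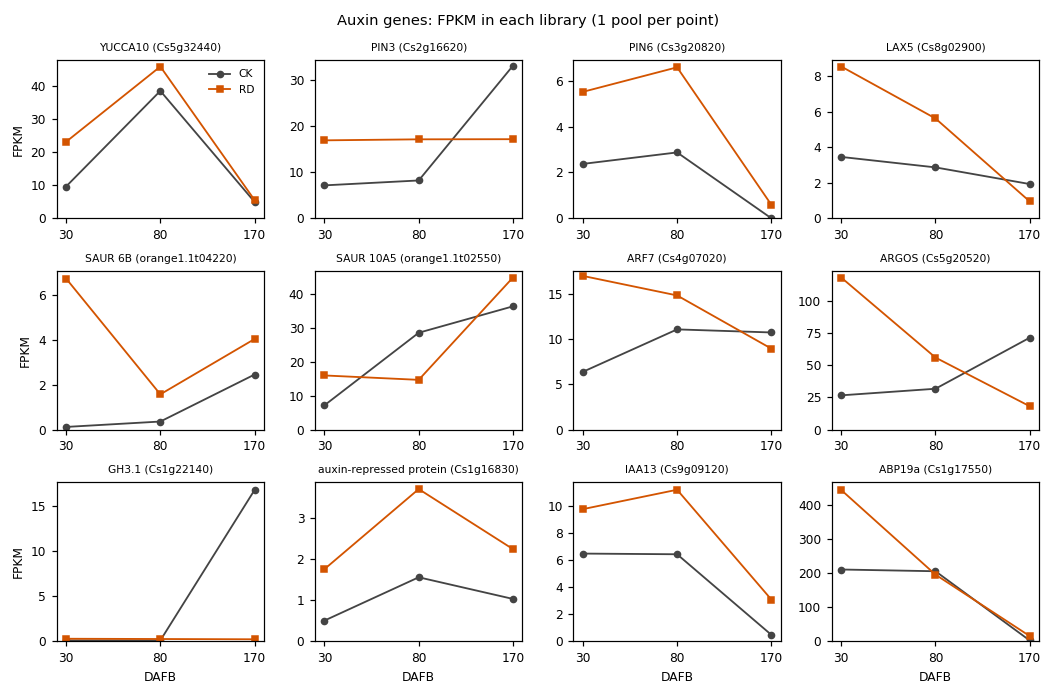
FPKM (linear axes) of 12 auxin genes at 30, 80 and 170 DAFB in CK and RD peel, 1 pooled library per point, with the stages evenly spaced. ARGOS-like (Cs5g20520) peaks in RD30 at 118.17, and GH3.1-like (Cs1g22140) stands at 16.81 in CK170 and at most 0.25 elsewhere.

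The remaining auxin-named genes include large and opposite differences. ARGOS-like (Cs5g20520), which in Arabidopsis prolongs cell division and enlarges organs, had 26.65 FPKM in CK30 against 118.17 in RD30, 31.77 in CK80 against 56.01 in RD80, and 71.43 in CK170 against 18.18 in RD170. RD was 4.43-fold above CK at 30 DAFB, 1.76-fold above it at 80 DAFB and 3.93-fold below it at 170 DAFB. The 2 peels thus ran opposite courses, RD falling and CK rising from 80 to 170 DAFB.
ABP19a-like (Cs1g17550) is named as an auxin-binding protein but belongs to the germin-like proteins of the cell wall. It had 209.69 against 442.85 at 30 DAFB, 204.59 against 194.63 at 80 DAFB, and 1.48 against 14.49 at 170 DAFB. Nearly gone from mature peel, it was lost less far in RD170 (log2 ratio 3.29).
The ARG2-like gene Cs5g33320, a relative of the late embryogenesis abundant proteins of stress, was the most abundant of all 95. It had 1298.93 in CK30 against 372.36 in RD30, 809.87 against 665.21 at 80 DAFB, and 443.92 against 383.72 at 170 DAFB, so CK30 was the high pool (log2 ratio -1.80). A second ARG2-like gene (Cs5g33290) had 13.42 against 10.48 at 30 DAFB, 4.26 against 7.93 at 80 DAFB, and 8.24 against 3.91 at 170 DAFB. It was lower in RD170 only (-1.08), and not so on the centred scale.

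Of cytokinin synthesis, the rule took in 1 gene. This adenylate isopentenyltransferase, IPT3-like (Cs5g31590), had an FPKM of 0.04 in CK80 and was listed at 0 in the other 5 libraries. The tRNA isopentenyl transferases, which give rise to cis-zeatin and lie outside the rule, were present. Cs3g07650 lay between 5.03 and 12.64 FPKM and Cs7g25370 between 8.49 and 27.05. Activation was dominated by LOG1-like (Cs8g16360), which releases active cytokinin from its nucleotide. It had 275.56 FPKM in CK30 against 210.06 in RD30, 307.55 in CK80 against 314.31 in RD80, and 199.11 in CK170 against 326.74 in RD170, and stayed within 2-fold between the peels. LOG8-like (Cs4g05560) had 1.71 against 4.2 at 30 DAFB, 8.47 against 5.9 at 80 DAFB, and 32.03 against 31.25 at 170 DAFB. It gained with age in both peels and was higher in RD at 30 DAFB (log2 ratio 1.30, under 2-fold on the centred scale). LOGL2-like (Cs3g25930) was higher at 80 DAFB, with 1.01 and 2.31.

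Degradation of cytokinin centred on cytokinin dehydrogenase 5-like (Cs3g25370). It had 4.01 FPKM in CK30 against 12.79 in RD30, 43.65 in CK80 against 40.82 in RD80, and 61.24 in CK170 against 24.85 in RD170. RD was higher at 30 DAFB (log2 ratio 1.67), level at 80 DAFB (-0.10) and lower at 170 DAFB (-1.30). The level was highest at 170 DAFB in CK peel and at 80 DAFB in RD peel. Dehydrogenase 6-like (Cs7g02410) had 1.22 against 2.86 at 30 DAFB (1.23, under 2-fold on the centred scale), and dehydrogenase 1-like (orange1.1t00627) had 3.41 and 0.96 (-1.83). The family thus went both ways at that stage. Of its 3 measurable members at 80 DAFB none met the rule, beside 5.2% of all genes higher and 4.86% lower.

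Histidine kinases include both cytokinin receptors and other sensors. The receptor-like genes are histidine kinase 3-like (Cs7g10900) and 4-like (Cs2g17860). The first had 16.9 against 29.16 FPKM at 30 DAFB, 33.98 against 34.07 at 80 DAFB, and 37.54 against 27.96 at 170 DAFB, under 2-fold throughout. The second had 12.37 and 22.07, 6.46 and 8.12, and 14.07 and 5.71, and was lower in RD170 (log2 ratio -1.30).
CKI1-like (Cs3g15040), named after a kinase that signals without cytokinin, had 30.58 against 77.59 at 30 DAFB, 42.97 against 54.4 at 80 DAFB, and 134.42 against 132.17 at 170 DAFB. It was higher in RD30 (1.34), under 2-fold on the centred scale, and nearly equal at maturity. Histidine kinase 1-like (Cs1g25680), named after an Arabidopsis osmosensor, had 72.18 in CK30 against 54.11 in RD30, 26.61 in CK80 against 77.67 in RD80, and 1.36 in CK170 against 6.32 in RD170. CK peel fell at each step and RD peel only after 80 DAFB, with log2 ratios of -0.42, 1.55 and 2.22. The phosphotransfer protein AHP1-like (Cs9g05280) had 46.18 against 53.51 at 30 DAFB, 24.56 against 36.76 at 80 DAFB, and 0.93 against 1.24 at 170 DAFB. It fell to about the same low level in both peels.

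Response regulators accounted for 7 of the 11 cytokinin genes higher at 30 DAFB, out of 13 measurable members, and 1 was lower, beside 25.6% and 6.34% of all genes. The 7 include the clock-named PRR95-like gene described below. After centring 3 of the 13 were higher, PRR95-like among them, and 2 lower, beside 13.9% and 10.8% of all genes. Type-A regulators, which cytokinin itself induces, went both ways. ARR9-like orange1.1t01850 had 1.04 FPKM in CK30 against 29.31 in RD30, 15.32 in CK80 against 10.68 in RD80, and 0.31 in CK170 against 0.31 in RD170. It was thus abundant in RD peel by 30 DAFB, 28.2-fold above CK30, and present in both peels at 80 DAFB. ARR15-like (Cs5g04810) had 0.6 in CK30 against 10.19 in RD30 (log2 ratio 4.09), and between 1.05 and 2.07 in the later libraries, so RD30 was its 1 high pool.
ARR4-like (Cs7g07940) had 34.09 in CK30 against 16.14 in RD30, 11.68 in CK80 against 5.99 in RD80, and 5.72 in CK170 against 9.97 in RD170. It was lower in RD30 (-1.08), nearly 2-fold lower in RD80 (-0.96), and not lower at maturity (0.80). A second ARR9-like gene (Cs3g19780) had 4.36 against 4.28 at 30 DAFB and was higher only in RD170, with 1.08 and 2.17. The type-A genes therefore did not move as 1 group.

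Type-B regulators, the transcription factors of the pathway, were measurable in 7 of 8 cases at 30 DAFB. Of these 4 were higher in RD peel and none was lower, beside 25.6% and 6.34% of all genes. ARR11-like (Cs7g10020) had 4.9 against 12.4 FPKM at 30 DAFB, 17.4 against 14.76 at 80 DAFB, and 20.06 against 13.64 at 170 DAFB. ARR12-like (Cs7g06180) had 3.18 and 8.45, 6.43 and 7.52, and 21.1 and 13.1. On the centred scale none of the type-B genes was 2-fold higher at 30 DAFB and 1 was lower, beside 13.9% and 10.8% of all genes. The lower was an ARR2-like gene (Cs9g02760) with 13.82 and 9.23. No type-B gene met the rule at 80 DAFB (5.2% of all genes higher, 4.86% lower) or 170 DAFB (8.14% and 10.1%). The most abundant response regulator, ARR2-like Cs2g17540, had 82.0 and 60.07, 61.1 and 49.87, and 29.56 and 22.35, with CK above RD at each stage by less than 2-fold.
A pair of pseudo-response regulators, PRR95-like and PRR37-like, entered by the text of their match but are named after clock genes. PRR95-like (orange1.1t00571) had 19.24 against 81.87 at 30 DAFB, 54.99 against 44.7 at 80 DAFB, and 11.12 against 40.17 at 170 DAFB. The time of day of sampling is not given in the sources used here, and its part in these values was not tested. Without this pair, 28 of 70 genes were higher at 30 DAFB and 6 lower.

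**Figure D3:**
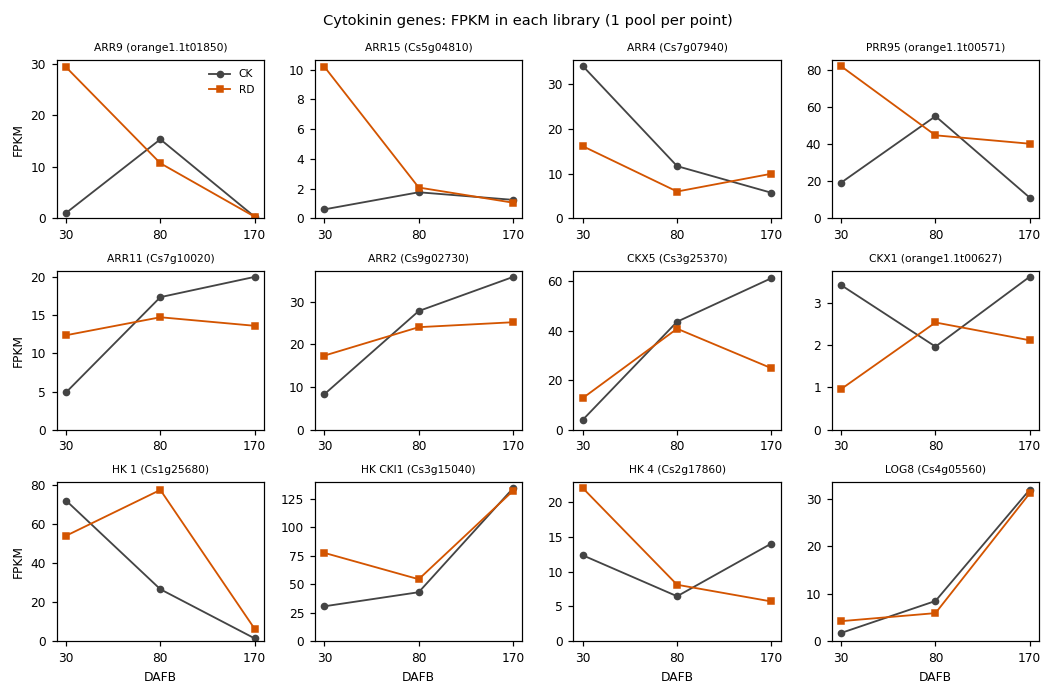
FPKM (linear axes) of 12 cytokinin genes at 30, 80 and 170 DAFB in CK and RD peel, 1 pooled library per point, with the stages evenly spaced. ARR9-like (orange1.1t01850) is at 29.31 in RD30 and 1.04 in CK30, and dehydrogenase 5-like (Cs3g25370) reaches 61.24 in CK170.

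**Figure D4:**
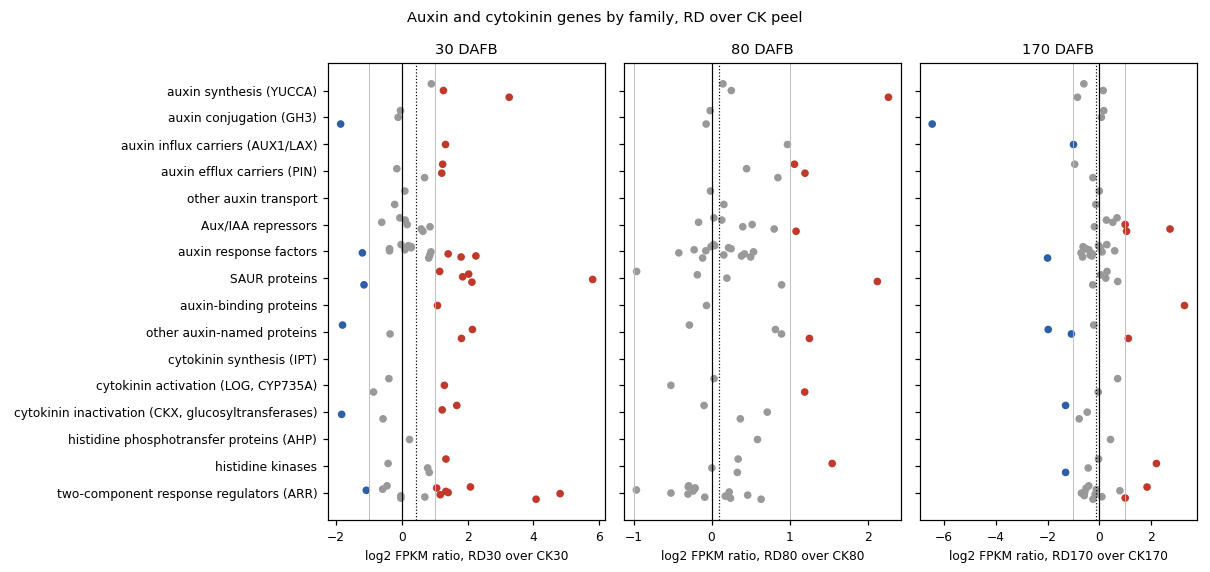
Log2 ratio of FPKM in RD to CK peel for each measurable gene above 0 in both libraries, by family, at 30, 80 and 170 DAFB. Red points are at least 2-fold higher and blue ones at least 2-fold lower, the dotted line is the median of all genes (0.43, 0.09 and -0.11), and at 80 DAFB all points lie between -0.96 and 2.27.

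Of the 29 genes higher in RD peel at 30 DAFB, 4 were lower at 170 DAFB (13.8%). Over all genes 528 of the 4458 higher at 30 DAFB were lower at 170 DAFB (11.8%), so this share was near that of genes at large. The 4 are the influx carrier (Cs8g02900), ARG7-like (Cs3g25880), ARGOS-like (Cs5g20520) and dehydrogenase 5-like (Cs3g25370). On the centred scale 3 of them remained, without the influx carrier. No gene was lower at 30 DAFB and higher at 170 DAFB. At both 30 and 80 DAFB 5 of the 75 genes were higher (6.67%), beside 1.91% of all genes. They are the auxin-repressed protein, the 6B-like SAUR, YUCCA2-like and the PIN3-like and PIN6-like carriers. After centring 3 remained (4.0%, beside 1.19% of all genes), without the carriers.

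Steps of development were read from the same 6 libraries, so they share pools with the comparisons above. From 30 to 80 DAFB, CK peel had 18 of 67 genes higher at the later stage and 7 lower, beside 23.4% and 9.06% of all genes. RD peel had 5 of 70 higher and 12 lower, beside 7.15% and 9.44%. From 80 to 170 DAFB 15 of 70 were higher and 18 lower in CK peel (14.8% and 17.5% of all genes), and 6 of 69 were higher and 23 lower in RD peel (8.77% and 17.7%). On the centred scale CK peel had 13 higher and 12 lower at the first step, beside 16.3% and 13.1% of all genes. The second step had 12 higher and 24 lower on that scale, beside 11.5% and 20.4%.
Some genes fell far in both peels by maturity, among them YUCCA10-like, ABP19a-like, AHP1-like and histidine kinase 1-like. In CK peel 2 genes, LOG8-like and ARR12-like, gained at least 2-fold at both steps, and in RD peel none did. ARR12-like did not reach 2-fold at the first step on the centred scale. ARR12-like went from 3.18 to 6.43 and 21.1 in CK peel and from 8.45 to 7.52 and 13.1 in RD peel.

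**Figure D5:**
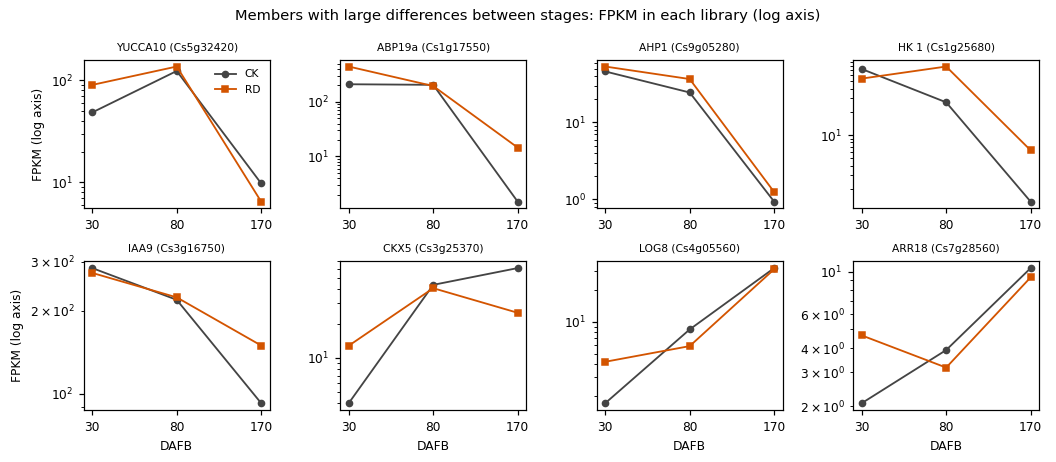
FPKM (log axis) of 8 auxin and cytokinin genes with large differences between stages, at 30, 80 and 170 DAFB in CK and RD peel, 1 pooled library per point, with the stages evenly spaced. ABP19a-like drops from 204.59 to 1.48 in CK peel between 80 and 170 DAFB and from 194.63 to 14.49 in RD peel.

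Other genes linked to the pathways by description, 53 that fall outside the rule, were counted by the same rule. They include 18 ABC transporters of the B family, some described as chloroplastic, and 13 LOB domain genes. Whether each acts with auxin or cytokinin was not tested. Of the B family 13 were measurable at 30 DAFB and 4 were higher (30.8%). Over all 53 genes, 33 were measurable at that stage. Of these 33, 12 were higher in RD peel (36.4%) and 1 was lower (3.03%), beside 25.6% and 6.34% of all genes. Once centred, 5 were higher and 2 lower, where 13.9% and 10.8% of all genes were. Of 34 at 80 DAFB, 1 passed the rule upward (2.94%) and 4 downward (11.8%), beside 5.2% and 4.86%. Of 36 at 170 DAFB, 3 did so upward (8.33%) and 9 downward (25%), beside 8.14% and 10.1%. The auxin receptors named after TIR1 included 2 higher of 4 at 30 DAFB, none of them so on the centred scale. LOB domain genes, some of which act downstream of ARFs, had 13 members, of which the 4 measurable at 30 DAFB were higher (2 of them on the centred scale), while 2 of 5 were lower at 80 DAFB, and 5 of 6 lower and 1 higher at 170 DAFB. LOB41-like (Cs7g26710) had 108.12 against 247.11 FPKM at 30 DAFB, 29.44 against 11.86 at 80 DAFB, and 54.41 against 16.97 at 170 DAFB. An enzyme that frees auxin from its conjugates, ILR1-like 1 (Cs7g08080), had 38.61 and 10.53, 27.43 and 12.93, and 11.82 and 24.13, lower in RD peel at 30 and 80 DAFB and higher at 170 DAFB.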

How the data were processed

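Peel RNA was sequenced in 6 libraries, 1 pool per peel and stage. According to the methods and the submitters' processing notes, the authors filtered the reads by quality, aligned them against the genome of sweet orange (Citrus sinensis) using Bowtie and BWA, and took FPKM from RSEM. Versions and the genome build are not given in the sources used here. The deposited FPKM values have 2 decimals. Reads per gene were not used here, so no count test was run and depth per gene is unknown.

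From these values, FPKM ratios were computed with Python 3.11.15, pandas 2.3.3 and numpy 2.4.6, and plotted with matplotlib 3.10.9. The limit was 2-fold with an FPKM of at least 1 in the higher library, and the script was tested on simulated data. The study's FDR test, which takes reads, was left out. Alternatives were ratios centred on their median over genes at 1 FPKM or more in both libraries, scaling to the upper quartile, pseudocounts of 0.1 and 1, no filter, and a limit of 5 FPKM. The members and lists were chosen with earlier results of these data known.

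Genes named are the most abundant of each family, those with the 2 largest ratios per direction, family and stage, and those past the limit at all 3 stages or in opposite directions. Other genes named, the tRNA isopentenyl transferases, the split of response regulators and ARFs into types, the genes plotted, the count without PRR37-like and PRR95-like, and the count restricted to 1 FPKM or more in both libraries were chosen after the values were seen. The reference gene table, of another assembly, matched 0 of the 95 genes, so no sequence or position is given.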

Additional observations from a re-analysis of the deposited data

Results flagged for a closer look

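Genes were singled out where RD peel lay at least 2-fold above CK peel at 30 DAFB and at least 2-fold below it at 170 DAFB. With 1 pool per condition, the difference between the stages was not tested for any of them. The log2 ratios of the 2 stages differed by 4.12 in ARGOS-like (Cs5g20520). In cytokinin dehydrogenase 5-like (Cs3g25370) the difference was 2.97, and in the influx carrier LAX5-like (Cs8g02900), whose ratio at 170 DAFB was barely past 2-fold, it was 2.33. ARG7-like (Cs3g25880) was higher in RD30 and was listed at 0 in RD170, beside 3.53 FPKM in CK170, so no ratio is given.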

How the results depend on the processing

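No paired analysis was possible because each condition has 1 library and no replicate number, and for the same reason no replicate could be left out. A fit pairing CK and RD by stage, which would treat the stages as replicates, was not run. Pools, fruit load and tree cannot be told apart from the disorder, weak genes are the least certain, and genes described alike may share reads. Of 132 alternative counts, 98 lay within 1.5 times the reported one, and of 48 ratios past the limit among the 44 named genes, none reversed direction. A pseudocount of 1 took 18 of these ratios under the limit, an FPKM of at least 5 took 21, centring 13, upper quartile scaling 11 and a pseudocount of 0.1 took 3. Centring, upper quartile scaling and no filter each brought 3 others past it. At 30 DAFB the 29 higher genes became 15 when centred on the median of all genes, 17 with upper quartile scaling and 19 with an FPKM of at least 5. The 6 lower became 10 when centred and 3 with an FPKM of at least 5 or of at least 1 in both libraries. At 80 DAFB the 8 higher became 2 with a pseudocount of 1, 16 with no filter and 3 with an FPKM of at least 5, and the 0 lower became 2 with either scaling and 4 with no filter. At 170 DAFB the 8 higher became 4 with a pseudocount of 1 or an FPKM of at least 5 and 15 with no filter, and the 9 lower became 16 with no filter, 5 with an FPKM of at least 5 and 4 with at least 1 in both libraries. From CK30 to CK80 the 18 higher became 11 with a pseudocount of 1. The 7 lower became 12 with either scaling, 14 with no filter and 4 with an FPKM of at least 5 or of at least 1 in both libraries. From CK80 to CK170 the 15 higher became 9 with either of these limits. From RD30 to RD80 the 5 higher became 1 with a pseudocount of 1 or an FPKM of at least 5, 2 with at least 1 in both libraries and 9 with no filter, and the 12 lower became 20 with no filter. From RD80 to RD170 the 23 lower became 15 with at least 1 in both libraries. Of the related genes at 30 DAFB, 5 were higher and 2 lower when centred. A scaling shifts every ratio and a filter sets which genes are counted. Why a given count moved, with these or with a pseudocount, was not tested.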

Other observations

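Purine permeases, some of which carry cytokinin in Arabidopsis, had a higher FPKM in CK170 than in CK30, by any amount, in 4 of 5 cases. The other was listed at 0 in both. The share of all genes that rose in this way was not counted. Over all genes, the median log2 ratio was above 0 at both steps of CK peel (0.31 and 0.195). Purine permease 1-like (Cs3g17650) had 4.36 FPKM in CK30 against 15.58 in RD30, 21.07 against 25.59 at 80 DAFB, and 30.95 against 15.92 at 170 DAFB. The tryptophan aminotransferase TAR4-like (Cs3g21870), of the step before YUCCA in auxin synthesis or of related amino acid metabolism, was at or below 0.49 FPKM through 80 DAFB and had 79.34 in CK170 against 57.74 in RD170. The cytokinin response factor CRF6-like (Cs7g26660) had 2.91 against 9.15 at 30 DAFB, a log2 ratio of 1.65, and 7.63 against 10.37 at 80 DAFB and 18.21 against 12.2 at 170 DAFB. PINOID-like (Cs2g09500), a kinase that directs PIN carriers, had 4.57 against 7.38 at 30 DAFB, 0.56 against 1.57 at 80 DAFB, and 0.06 against 0.16 at 170 DAFB.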
